A study of Rattus norvegicus with 2 samples.

Results

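Replication licensing and replicative polymerase genes are described here in H9c2, a rat myoblast line that was established from embryonic heart tissue. The 6 genes were chosen by function, with earlier results of these data known, and matched by gene identifier. They were the helicase subunit Mcm4, the licensing factor Cdt1, the single-strand binding subunit Rpa3, and the polymerase subunits Pola1, Pola2 and Pole2. All 6 were listed in both files, among 8039 entries per file, of which 7803 had a usable identifier. A gene is called measured where its FPKM (fragments of a gene, scaled by its transcript length and by the mapped total) averaged at least 1 over both libraries, which held for all 6 and for 4366 genes in all. The cells were kept for 12 h in medium without serum, at 0.9 mM phosphate (control) or 2.5 mM phosphate (high phosphate). Each phosphate level had 1 library of total RNA. No difference below therefore has a replicate check, and none was tested.

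Eukaryotic cells license replication origins before S phase. The origin recognition complex, Cdc6 and Cdt1 load the MCM helicase, a ring of the subunits Mcm2 to Mcm7, onto DNA, and geminin binds Cdt1 to prevent loading a second time in the same cycle. In S phase the ring is activated with Cdc45 and the GINS complex, the exposed single strands are coated by the RPA trimer, polymerase alpha with primase makes the primers, and polymerases epsilon and delta extend them. Many of these genes are transcribed under the control of E2F factors as cells approach S phase. Removal of serum is a classical way to slow entry into the cycle, and both cultures were without serum here.

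The licensing genes and most polymerase subunits were listed at lower FPKM in the high phosphate library, and Rpa3 at higher FPKM. Of the 6 genes, 4 were lower by sign (Mcm4, Cdt1, Pola2 and Pole2), and 49.4% of all measured genes were lower. The other 2, Rpa3 and Pola1, were higher, and 50.5% of all measured genes were higher. Once the libraries were scaled to equal sums of listed FPKM, called here rescaling to the same sum, 5 of the 6 and 67.8% of all measured genes were lower, with Pola1 the gene that changed sign. Differences are given as log2((high phosphate FPKM + 1)/(control FPKM + 1)), a scale on which differences between low values look smaller than they are. In bulk RNA, fewer cells in S phase and less RNA per cell cannot be told apart. None of the 6 genes was 2-fold apart on this scale, a distance reached by 2.63% of measured genes, 1.76% higher and 0.870% lower. At 1.5-fold, 1 of the 6 was lower (Mcm4) and none higher, against 3.37% of measured genes lower and 7.21% higher, together 10.6%. The median log2 ratio was -0.22 over the 6 genes and 0.00 over all measured genes.

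**Figure D1:**
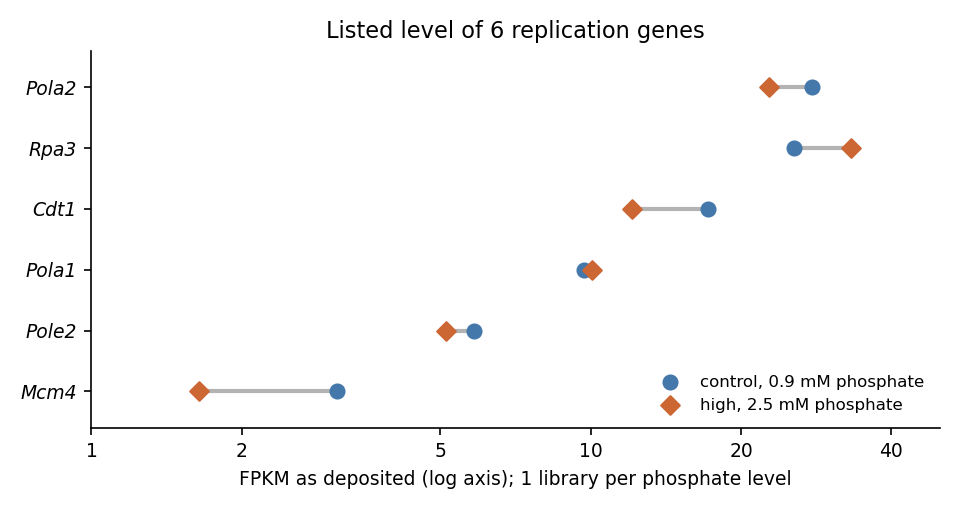
Listed FPKM of the 6 genes (horizontal log axis) in the control library (circles, 0.9 mM phosphate) and the high phosphate library (diamonds, 2.5 mM phosphate), with 1 library each and no error bars. Mcm4 was lowest in both libraries, at 3.11 and 1.64 FPKM, and Rpa3 was the gene listed furthest to the right in high phosphate, at 33.1 FPKM.

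FPKM is relative to transcript length, so listed levels of different genes can be set side by side, as far as each estimate holds. Some may not hold: Rnaseh2a was listed at 0.04 and 20.9 FPKM, and Fen1 at 0.01 FPKM in both libraries. In the control library the order from the highest level was Pola2, Rpa3, Cdt1, Pola1, Pole2 and Mcm4. In the high phosphate library Rpa3 stood above Pola2 and the rest of the order was unchanged. With 1 library per condition there is no spread by which to say whether neighbours in this order differ.

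Promoter sequences show what regulatory letters some of these genes share, a feature that the choice of genes did not use. RefSeq sequences of the assembly GRCr8 were matched for 4 of the 6 genes, Cdt1, Pola1, Pola2 and Pole2, from 250 bases before the transcription start to 50 bases after it. Matches to the E2F motif are printed below because E2F factors are the textbook regulators of this gene set. The motif was searched as TTTCCCGC, TTTGGCGC, TTTCGCGC or TTTGCCGC on both strands, and capitals mark the match within its flanking bases.

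Cdt1, chr19:67529247-67529272, plus strand: gcgaaaattGCGCGAAAtccgcggga

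Cdt1, chr19:67529272-67529297, plus strand: aagtagcttTTTGGCGCcatggcgca

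Pola1, chrX:62342511-62342536, minus strand: catcacaggGCGCCAAAtgcagtccc

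Pole2, chr6:93435336-93435361, minus strand: tcggcggtgGCGCCAAAtctcaaaca

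The Pola1 match began 172 bases before the start, and the Pole2 match and both Cdt1 matches lay within the 50 bases after it. Other annotated transcripts of Pola1, Pola2 and Pole2 begin further upstream than the start used here. Of the 250 bases before the start, 100 in Pola1, 125 in Pola2 and all 250 in Pole2 lie inside such a longer transcript. The motif matches and base shares of Pole2 given below therefore come from bases inside the gene. In the 250 bases before the start, 1 of the 4 promoters held a match, against 3.4% of 3770 promoters of measured genes and 1.73% of all 33469 promoters. Over the whole window of 300 bases, a search added after the first was seen, 3 of the 4 held one, against 4.35% and 2.14%. Pola2 held none of the 4 spellings, which says only that these letters are not in this window. The genes with a match included Cdt1, with a log2 ratio of -0.47, and Pola1, with 0.05.

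The bases before the Cdt1 start are shown because this gene had the lowest log2 ratio of the 4 with a promoter entry. Capitals mark GGGCGG, the GC box, on the plus strand 23 bases before the start.

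Cdt1, chr19:67528999-67529248, plus strand: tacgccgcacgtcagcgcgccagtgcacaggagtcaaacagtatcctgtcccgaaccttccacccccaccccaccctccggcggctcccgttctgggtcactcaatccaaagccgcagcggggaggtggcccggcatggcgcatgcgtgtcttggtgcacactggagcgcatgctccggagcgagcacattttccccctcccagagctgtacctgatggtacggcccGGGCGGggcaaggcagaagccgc

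The stretch upstream of all annotated Pola1 starts is shown beside it, because Pola1 differed least between the libraries. Capitals mark the E2F match and, nearer the gene, a GC box.

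Pola1, chrX:62342456-62342605, minus strand: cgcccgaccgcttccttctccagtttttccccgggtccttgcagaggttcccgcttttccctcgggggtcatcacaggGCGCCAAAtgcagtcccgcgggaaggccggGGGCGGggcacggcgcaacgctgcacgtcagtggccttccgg

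All 4 promoters held GGGCGG, searched like the other motifs on both strands, in the 250 bases before the start, as did 60.3% of promoters of measured genes. CCAAT, the NF-Y motif, was found in Pola1 alone among the 4, against 37.4% of promoters of measured genes. TTTGAA, the cell cycle homology region of many mitotic genes, was found in Pole2 alone, against 10.7%. The share of G and C in those bases was 66.4% in Cdt1, 67.2% in Pola1, 62% in Pola2 and 57.6% in Pole2, beside a median of 60% over measured genes. The 4 promoters thus differed in each motif searched other than the GC box.

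Mcm4, a subunit of the helicase core of the MCM ring, had 3.11 FPKM in the control library and 1.64 FPKM in the high phosphate library. Its listed FPKM was 47.3% lower in high phosphate, and its log2 ratio of -0.64 was the lowest of the 6 genes. Among all measured genes 2.7% had a lower log2 ratio, and among the 875 genes of similar level (the bottom bin when genes are split by mean FPKM into 5 equal bins) 5.71% did, since low genes spread more widely. With a pseudocount of 0.1 in place of 1 the log2 ratio was -0.88.

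The other listed subunits of the ring had far higher listed FPKM than Mcm4 although the ring contains each subunit once. Whether the low value of Mcm4 is a failed estimate was not tested. Control and high phosphate values were 76.6 and 63.6 FPKM for Mcm6, 56.8 and 46.7 FPKM for Mcm2, and 36.5 and 34.3 FPKM for Mcm3. All 3 were lower in high phosphate, with log2 ratios of -0.27, -0.28 and -0.09. In the control library the level of Mcm2 was 18.2 times that of Mcm4, and in high phosphate 28.5 times. For Mcm6 the ratios were 24.6 and 38.8, and for Mcm3 11.7 and 20.9. These ratios within a library do not depend on how the libraries were scaled to each other, and Mcm4 was further below each listed partner in high phosphate. Its share of the summed FPKM of the 4 listed subunits was 1.8% in the control and 1.12% in high phosphate. Mcm5 and Mcm7 were not analysed here.

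Cdt1, which delivers the MCM ring to origins, stood at 17.2 FPKM under control phosphate and at 12.1 FPKM under high phosphate. The listed value was 29.6% lower, with a log2 ratio of -0.47. A lower log2 ratio was found in 5.43% of all measured genes and in 4.81% of the 873 genes of similar level. Geminin, encoded by Gmnn, the inhibitor that binds Cdt1 outside G1, was listed at 50.1 and 49.4 FPKM. The level of Gmnn was 2.92 times that of Cdt1 in the control and 4.08 times in high phosphate. Of the genes written for Cdt1 turnover, 5 of 12 were measured, among them the inhibitor Gmnn, which is not a ubiquitin ligase gene. As deposited, 3 of the 5 were higher and 2, Gmnn and Skp2, lower. After rescaling to the same sum, 1 was higher and 4 lower. When that sum left out the 100 most abundant genes, 2 were higher and 3 lower. The share of all measured genes that were higher was 50.5%, 32.2% and 40.7% in these 3 settings. None of the 5 turnover genes was 1.5-fold apart on the scale with the added 1. Skp2, the F-box protein that recognises phosphorylated Cdt1, was listed at 3.92 and 3.15 FPKM and had the lowest log2 ratio of that list. The cullin Cul1 had the highest, 0.49, with 1.58 and 2.63 FPKM, which are 1.66-fold apart without the added 1.

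**Figure D2:**
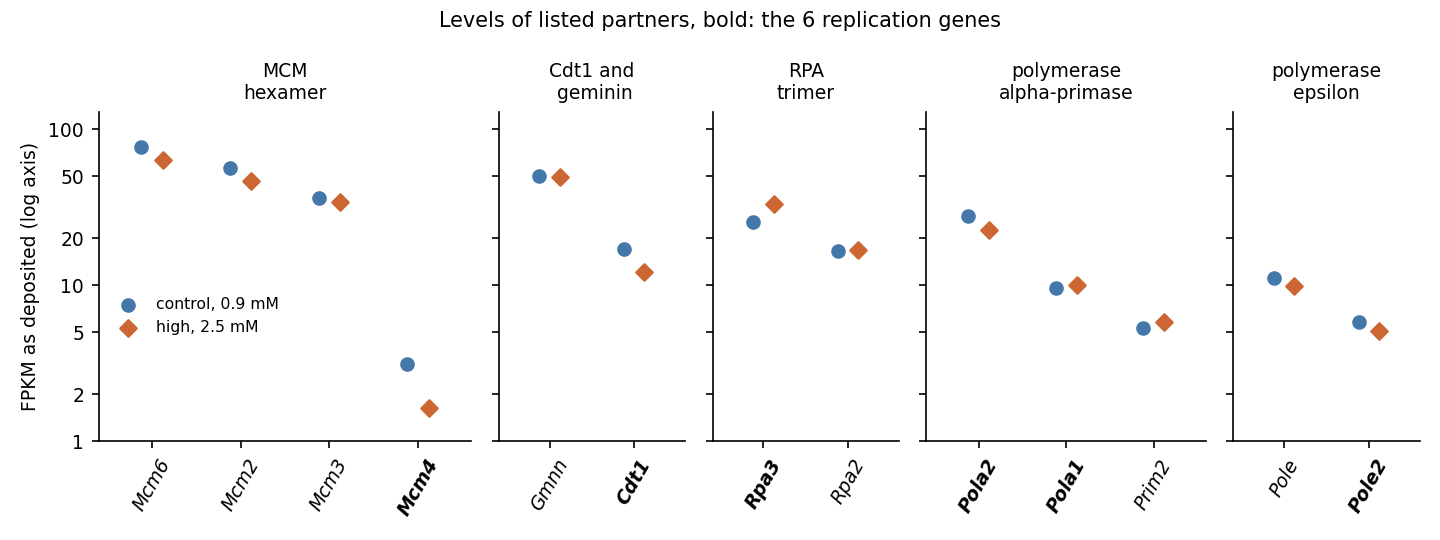
Listed FPKM (vertical log axis) of the 6 genes (bold names) and their listed partners in 5 complexes, in the control (circles) and high phosphate (diamonds) libraries, 1 library each. Mcm4 lay below every listed MCM partner in both libraries, and Gmnn was 2.92 and 4.08 times the level of Cdt1.

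Rpa3, the smallest subunit of the RPA trimer that coats single-stranded DNA, had 25.5 FPKM in the control library, against 33.1 FPKM under high phosphate. It was the member with the highest log2 ratio, 0.37, which corresponds to a listed value 30% higher. Of all measured genes 85.1% had a lower log2 ratio, and of the 873 genes of similar level 89.3% did. Its partner Rpa2 was nearly level at 16.7 and 16.8 FPKM. The level of Rpa3 was thus 1.53 times that of Rpa2 in the control and 1.97 times in high phosphate. Rpa1, the largest subunit, was not analysed here. Nabp2, part of another single-strand binding complex, had the lowest log2 ratio of the single-strand binding list, -0.68, with 7.47 and 4.3 FPKM, and passed 1.5-fold. In that list of 4 measured genes, 2 were higher and 2 lower; Rpa2, with a log2 ratio of 0.01, turned lower under 3 of the 4 rescalings.

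Polymerase alpha with primase starts each new strand. Its accessory subunit Pola2 had 27.7 FPKM in the control library and 22.7 FPKM under high phosphate, which is 18% lower (log2 ratio -0.28). Its catalytic subunit Pola1, an X-linked gene, was listed at 9.68 and 10.05 FPKM (log2 ratio 0.05), and after rescaling to the same sum the log2 ratio was -0.11. The primase subunit Prim2 was listed at 5.32 and 5.83 FPKM, with the highest log2 ratio of the replicative polymerase list, 0.11. The level of Pola2 was 2.86 times that of Pola1 in the control and 2.26 times in high phosphate. The subunits of this complex thus lay closer together in the high phosphate library, with Pola2 holding 64.9% and 58.8% of the FPKM summed over the 3 listed subunits. Among measured genes 15.3% had a lower log2 ratio than Pola2 and 55.8% a lower one than Pola1.

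Pole2, the accessory B subunit of the leading-strand polymerase epsilon, had 5.85 FPKM under control phosphate and 5.13 FPKM under high phosphate, 12.3% lower (log2 ratio -0.16). Its catalytic partner Pole was listed at 11.1 and 9.91 FPKM (log2 ratio -0.15). The level of Pole was 1.9 times that of Pole2 in the control and 1.93 times in high phosphate. These 2 listed subunits, of 4 looked for, therefore kept nearly the same proportion. So did some subunits of the other complexes. Mcm6 held 44.3% and 43.5% of the FPKM of the listed MCM subunits, and Mcm2 32.8% and 31.9%. Prim2 stood at 0.55 and 0.58 times the level of Pola1. Whether the complexes differ in this was not tested. Of polymerase delta, the lagging-strand enzyme, the accessory subunit Pold2 was listed at 36.6 and 33.7 FPKM, whereas the catalytic subunit Pold1 was listed at 0.21 and 0.18 FPKM. Of measured genes 26.7% had a lower log2 ratio than Pole2.

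**Figure D3:**
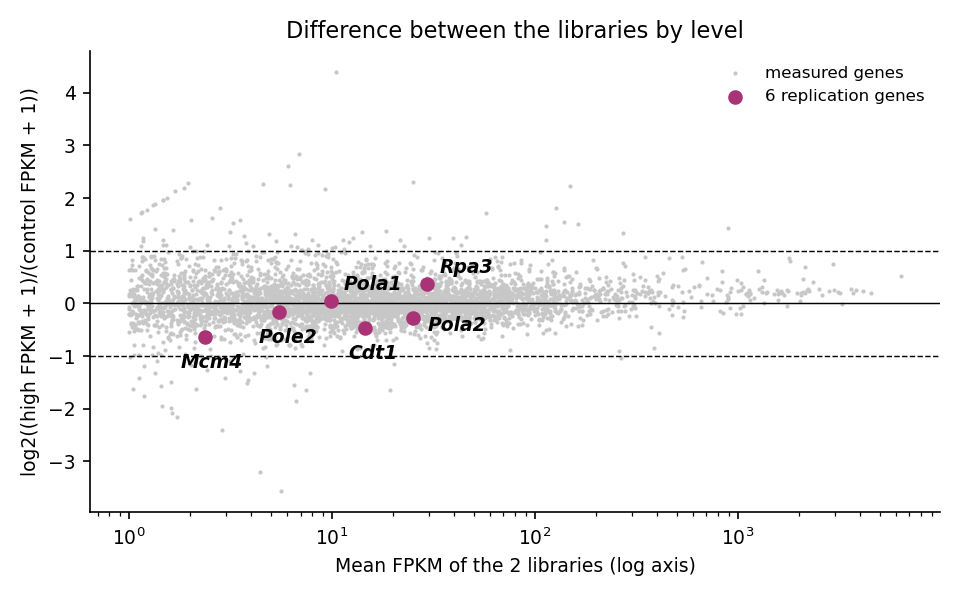
The log2 ratio of high phosphate to control (vertical axis, with 1 added to each FPKM) against the mean FPKM of both libraries (log axis) for 4366 measured genes (grey) and the 6 replication genes (purple). Dashed lines mark 2-fold, and all 6 genes lay between them, from -0.64 for Mcm4 to 0.37 for Rpa3.

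The 6 genes lay within the spread of the measured genes, whose central 95% of log2 ratios ran from -0.65 to 0.88. In the lowest of the 5 bins of level, where Mcm4 lay, it ran from -1.02 to 1.18. In the third bin, which held Cdt1 and Pola1, the range was -0.56 to 0.80, and in the fourth, which held Pola2 and Rpa3, it was -0.49 to 0.69. Each of the 6 genes lay inside the range of its own bin. Cdt1 came nearest to an edge, with 42 of 873 genes of similar level below it.

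The wider replication machinery was described from 10 lists by role, written with earlier results of these data known. Of the 110 genes written, 55 were listed and 48 measured, including the 6. Of the 48, 32 were lower and 16 higher, with a median log2 ratio of -0.10, while 49.4% of all measured genes were lower. Without the 6 genes the counts were 28 lower and 14 higher of 42, with a median of -0.10. After rescaling to the same sum, 42 of the 48 were lower, when 67.8% of all measured genes were. The median stood 0.10 below that of all measured genes under each of the 4 rescalings. A rescaling shifts both medians almost alike, so this distance could hardly change. Only Rnaseh2a, the catalytic subunit of RNase H2, was 2-fold apart, listed at 0.04 and 20.9 FPKM, and a value so near 0 can be a failed estimate. In its list, Okazaki fragment maturation, 3 of 4 measured genes were higher as deposited and 1 of 4 after rescaling to the same sum, with Rnaseh2b lowest at 8.24 and 6.8 FPKM. Topoisomerases, the last of the 10 lists, had no gene among those analysed here.

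Origin licensing and origin firing held the lower medians of these lists. Of the 10 measured genes of the licensing list, 9 were lower and 1 higher, with a median log2 ratio of -0.24. All 4 rescalings lower the high phosphate values, so only the higher gene could have changed sign, and it did not. Besides Mcm4 and Cdt1 the list held the meiotic and repair helicase Mcm8 at 4.41 and 3.16 FPKM. The MCM-binding protein gene Mcmbp was listed at 48.8 and 42.2 FPKM. Orc5, the subunit of the origin recognition complex that was higher, had 2.26 and 2.89 FPKM. Gmnn, whose protein inhibits licensing, also counted among the lower genes, although nearly level with a log2 ratio of -0.02. All 5 measured genes of helicase activation were lower as deposited, with a median of -0.20, and so could not turn higher under the rescalings. Gins3 had the lowest log2 ratio among them, with 9.15 and 6.78 FPKM, and Cdc45, at 6 and 5.88 FPKM, was nearly level, as was Ticrr at 4.73 and 4.64 FPKM. Mcm10, at 0.05 and 0.2 FPKM, and Wdhd1, at 0 and 0.18 FPKM, were higher but fell below a mean of 1 FPKM.

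Replicative polymerases and primase were lower in 4 of 6 cases as deposited (median -0.13) and in 6 of 6 after rescaling to the same sum. Most measured genes, 67.8%, were lower after that rescaling, against 49.4% as deposited. The clamp and clamp loader genes were lower in 4 of 5 cases and in 5 of 5 after that rescaling. The sliding clamp Pcna had the lowest log2 ratio of that list at -0.14, with 125 and 113 FPKM, and the loader cofactor Chtf8 the highest at 0.15. Chromatin assembly genes were lower in 4 of 5 cases (median -0.15), from the histone chaperone subunit Chaf1a at -0.21 to Asf1b at 0.27. Measured fork protection and checkpoint genes were lower in 3 of 4 cases, from the fork protection gene Tipin at -0.16 to Rad1 at 0.22. Chek1 was higher, at 0.25 and 0.89 FPKM, and Atrip lower, at 0.89 and 0.59 FPKM, but both fell below a mean of 1 FPKM. All measured genes of the lists in this paragraph were less than 1.5-fold apart on the scale with the added 1, whereas Chek1 had a log2 ratio of 0.60.

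Genes that supply deoxynucleotides did not share this sign as deposited. All 5 measured members were higher (median log2 ratio 0.15), although after rescaling to the same sum 1 of 5 was higher. Over all measured genes, 50.5% were higher as deposited and 32.2% after that rescaling. The ribonucleotide reductase subunit Rrm1 was listed at 103 and 114 FPKM and Rrm2 at 53.2 and 58.9 FPKM. Within each library, Rrm1 and Rrm2 therefore stood higher relative to Mcm2 and Cdt1 in high phosphate than in the control. Relative to Rpa3 and Asf1b, whose listed values rose by more, Rrm1 and Rrm2 stood lower. Dtymk, at 0.08, and Nme1, at 0.18, were the lowest and highest of the list. Repair and translesion polymerases were higher in 3 of 5 cases (2 of 5 after rescaling to the same sum), from the mitochondrial accessory subunit Polg2 at -0.60 to Poll at 0.24.

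**Figure D4:**
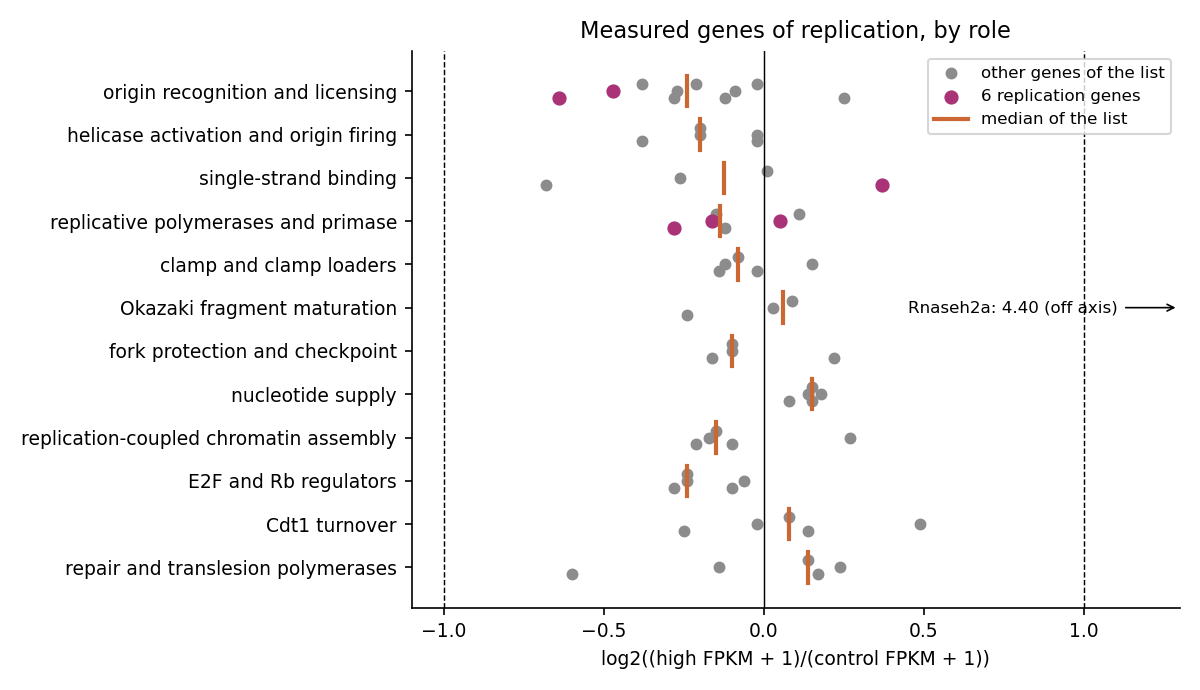
The log2 ratio of high phosphate to control (horizontal axis) for each measured gene of 12 lists by role, with the 6 replication genes in purple and the list median as a vertical bar; Rnaseh2a lies off the axis, and genes may stand in more than 1 list. The median was -0.24 for licensing, -0.20 for helicase activation and 0.15 for nucleotide supply.

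E2F and Rb regulators, the textbook controllers of these genes, were covered in part, with 6 of 18 written genes listed and 5 measured. These 5 (Tfdp1, Lin9, E2f6, E2f4 and Lin37) were lower as deposited, with a median log2 ratio of -0.24. The rescalings all lower the high phosphate values, so they could not turn any of the 5 higher. The share of lower genes among all measured ones was 49.4% before rescaling and 67.8% once the listed sums were made equal. The 6 listed genes held no Rb family gene and no E2F besides E2f4, E2f6 and E2f8, so E2F activators were not covered. Any link between these regulators and the replication genes was not tested. Tfdp1, the partner that E2F factors need to bind DNA, was listed at 12.5 and 10.1 FPKM and had the lowest log2 ratio of the list, -0.28. Lin37, a subunit of the DREAM complex that represses cell cycle genes, had the highest, -0.06. E2f4, a mostly repressive E2F, was listed at 31.5 and 29.3 FPKM. E2f8, a repressive E2F that is itself an E2F target, was listed at 1.48 and 0.49 FPKM, just under the mean of 1 FPKM that the measured genes had to reach.

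By level in both libraries, each of the 6 genes was paired with the nearest measured replication gene on the scale of log2(FPKM + 1). The nearest to Mcm4 was Rpain at a distance of 0.54, and to Rpa3 the clamp loader subunit Rfc2 at 0.38. Cdt1 lay nearest to Tipin at 0.24, Pole2 to Cdc45 at 0.17, Pola1 to Asf1a at 0.16 and Pola2 to Supt16h at 0.14. These distances rest on 2 libraries, and Mcm4 and Rpa3 had the least close neighbours.

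The files bound what can be read from these values. Listed FPKM summed to 307622 in the control and 346857 in high phosphate, and the read numbers behind them are unknown, so counting error cannot be stated. Of the replication genes listed, 7 had a mean under 1 FPKM, among them the flap endonuclease Fen1 at 0.01 FPKM in both libraries and Pold1, both of which dividing cells use, and the low level of Mcm4 is likewise given only as listed. Of 18 muscle markers, 7 were listed, with summed FPKM of 164 and 190: Des was listed at 128.5 and 153 FPKM, Myod1 at 6.11 and 1.59 FPKM, and the cardiac genes Myh7 and Ryr2 at 0 in both. Of 18 markers of endothelial, blood, epithelial and glial cells, 11 were listed, with summed FPKM of 141 and 249, nearly all of it from the keratin Krt8 at 140 and 247 FPKM. The leukocyte marker Ptprc was at 0 in both, and the endothelial marker Pecam1 was at 0.05 and 0.22 FPKM. The part of Myod1 or Krt8, which differed between the libraries, in the values of the replication genes was not tested.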

How the data were processed

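RNA sequencing values came from 2 cultures of H9c2 cells, with 1 library for each level of phosphate. The values the authors deposited are FPKM, per the file headers, rounded to 2 decimals. Tools named in the submitters' processing notes are TopHat2 2.1.1, Cufflinks 2.2.1, Cuffdiff and bcl2fastq, with the build Rnor_6.0. What each tool did, which annotation and strand setting applied, how shared reads were handled and whether libraries were scaled to each other is, in the sources used here, not given. Identifiers were matched to symbols in a RefSeq table for GRCr8 (7746 of 7803 usable entries); 236 entries without a usable identifier, 8.2% and 8.56% of listed FPKM, were left out. No value was read at the GRCr8 coordinates printed with promoters.

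The log2 ratio used a pseudocount of 1 on FPKM as deposited, for genes whose mean reached 1 FPKM, and 2-fold as the threshold; no test was possible. Alternatives were pseudocounts of 0.1 and 0.5, 4 rescalings, other filters (none, and 5 FPKM) and a 1.5-fold threshold. The 6 genes, the lists, the motifs and the naming rule were chosen with earlier results of these data known. The rule named all 6 genes, their listed partners, the highest and lowest gene and any 2-fold gene of each replication list, the nearest replication gene and the most abundant markers; further genes were picked with their values in view. A planned comparison of protein sequences was not made. The code for the ratio and the threshold was run on simulated data with large planted changes. That run checks the code, and not differences as small as those of the 6 genes. Python 3.11.15, numpy 2.4.6, pandas 2.3.3 and matplotlib 3.10.9 were used.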

Additional observations from a re-analysis of the deposited data

How the results depend on the processing

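A pseudocount cannot change a sign, and all 4 rescalings multiplied the high phosphate library by less than 1 (0.8869 to 0.9972). Mcm4, Cdt1, Pola2 and Pole2, lower as deposited, therefore stayed lower by arithmetic. Rpa3, which the rescalings could have turned lower, stayed higher under each. With 2 other pseudocounts and 4 rescalings, none of these genes reached 2-fold. Their log2 ratios ran from -0.88 to -0.64 for Mcm4, -0.63 to -0.47 for Cdt1, -0.44 to -0.28 for Pola2, -0.30 to -0.16 for Pole2 and 0.20 to 0.38 for Rpa3. Pola1 turned from 0.05 to -0.11 after rescaling to the same sum and to -0.03 when that sum left out the 100 most abundant genes, so that 1 of the 6 genes was higher in both. Relative to the median of all measured genes, which the first of these rescalings moved to -0.15, Pola1 stayed between 0.04 and 0.05. That distance is nearly fixed, because a rescaling shifts Pola1 and the median almost alike. Rescaling to the same sum left 6 of 48 replication genes higher. At 1.5-fold, 1 of the 6 genes and 3 of the 48 passed. Over all measured genes, the counts higher and lower were 77 and 38 at 2-fold, 151 and 62 with a pseudocount of 0.1, 41 and 8 from a mean of 5 FPKM, and 315 and 147 at 1.5-fold. They were 54 and 56 after rescaling to the same sum. From a mean of 5 FPKM Mcm4 is no longer measured, which leaves 3 lower genes of 5. The E2F motif count of 1 promoter before the start became 3 over the whole window. No paired analysis was possible because each phosphate level has 1 library. With the read depth unknown, differences as small as those of Pola1 and Pole2 have no error to be read against.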

Other observations

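Neighbouring genes were looked up by their order in the RefSeq assembly GRCr8, and their listed values are given as they stand. Mcm4 is next to Prkdc, the catalytic subunit of the DNA-dependent protein kinase, with 2.1 FPKM under control and 1.64 FPKM under high phosphate (log2 ratio -0.23). The gene on the other side of Mcm4, Ube2v2, was listed at 0.23 and 0.09 FPKM. Cdt1 is next to Aprt, an enzyme of adenine salvage, which was listed at 215 and 261 FPKM (log2 ratio 0.28), the opposite sign to that of Cdt1. Next to Rpa3, Mios was listed at 0.31 and 0.54 FPKM.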
